A study of Mus musculus with 2 samples.

Results

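The genes described here are 10 members of the cytoskeleton: the cytoplasmic actins Actb and Actg1, the actin-binding proteins Tmsb4x, Tmsb10, Pfn1, Cfl1, Coro1a, Lcp1 and Arpc2, and the intermediate filament gene Vim. They were found by symbol, each in 1 row, among the 31053 features of both libraries. Single-cell RNA-seq had been run on CD1 mouse embryos at E15.5, on cells of the hypothalamic and thalamic region sorted for Cd11b and Cd45, surface proteins of myeloid cells. The stressed library pooled 5 embryos of 1 dam that spent 30 min per day at 4 °C from E11.5 to E15.5, over 5 days of pregnancy. The control library pooled 10 embryos of 1 wild-type CD1 dam without cold stress. Both were droplet libraries that count unique molecules (UMIs) at the 3′ ends of transcripts.

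Each condition was thus 1 litter and 1 library, so litter, sex make-up, library and treatment cannot be told apart. No test between conditions was possible, and the intervals, all at 95%, take in counting error alone. The genes were chosen by earlier values of these same libraries, among them a lower Vim in stressed microglia and the abundance of Actb and Tmsb4x, so what follows is a description. The files held 1467 stressed barcodes with 6582188 UMIs and 1156 control barcodes with 2833015 UMIs, at medians of 3767 and 1947.5 UMIs. Cells with 500 or more genes and no more than 10% mitochondrial UMIs were kept, 1407 stressed and 1068 control. Marker genes placed 1147 stressed and 689 control cells with microglia, the resident macrophages of the brain, and all 12 microglial markers were detected in both. Border-associated macrophages numbered 25 and 79 cells, monocytes or granulocytes 9 and 14, neural progenitors 47 and 48, neurons 87 and 132, and vascular cells 8 and 5. The libraries shared 13 barcodes, of which 5 stressed and 8 control cells were kept. Leaving these out changed the call of 1 member in the 4 main classes, Tmsb4x in neural progenitors.

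Actin cycles between monomers and filaments. Thymosins (Tmsb4x, Tmsb10) hold monomers in reserve, profilin (Pfn1) feeds them to growing ends, and cofilin (Cfl1) severs old filaments. The Arp2/3 complex, of which Arpc2 is a subunit, starts branches, coronin 1A (Coro1a) turns branched networks over in leukocytes, and L-plastin (Lcp1) bundles filaments in blood-derived cells. In microglia this machinery drives motile processes and phagocytosis, while vimentin (Vim) forms the intermediate filaments of radial glia, endothelium and many blood-derived cells.

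The members of 2 closely related pairs, the thymosins and the actins, differed in how they compared between the libraries, so their coding sequences are shown. The whole coding region of the thymosins and coding bases 1 to 60 of the actins are printed from GENCODE M21 for GRCm38, on the coding strand, with capitals at the bases that differ within a pair.
Tmsb4x: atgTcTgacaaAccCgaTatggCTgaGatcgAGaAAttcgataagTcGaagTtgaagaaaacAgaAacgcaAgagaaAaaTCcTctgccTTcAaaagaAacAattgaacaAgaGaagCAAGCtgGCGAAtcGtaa
Tmsb10: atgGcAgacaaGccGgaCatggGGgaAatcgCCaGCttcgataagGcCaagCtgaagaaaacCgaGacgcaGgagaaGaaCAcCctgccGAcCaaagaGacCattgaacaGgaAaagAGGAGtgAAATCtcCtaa
Actb: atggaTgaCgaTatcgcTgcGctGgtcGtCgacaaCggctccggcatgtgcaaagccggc
Actg1: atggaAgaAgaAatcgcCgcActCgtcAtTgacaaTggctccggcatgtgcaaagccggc
The thymosins differ at 40 of 135 coding bases (70.4% identity) and the actins at 128 of 1128 (88.7%). The actin proteins are nearly the same, and the few residues that tell them apart lie near the amino terminus, inside the stretch shown. UMIs come from the other end of the transcript: of the last 300 transcript bases, 1 other gene in the files was at least 95% alike over at least 200 bases, Gm9844, a near copy of the Tmsb10 end. It held 161 stressed and 132 control UMIs, against 22077 and 15319 for Tmsb10, so the split between these genes is uncertain by about that amount.

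In GRCm38 and on the minus strand, Actb (ENSMUSG00000029580) spans chromosome 5 from 142903115 to 142906754 and Actg1 (ENSMUSG00000062825) chromosome 11 from 120345690 to 120348542. Tmsb4x (ENSMUSG00000049775) is X-linked, at 167207093 to 167209315, and Tmsb10 (ENSMUSG00000079523) lies on chromosome 6 from 72957347 to 72958748, both on the minus strand. Pfn1 (ENSMUSG00000018293) lies on chromosome 11 from 70651850 to 70654644 and Coro1a (ENSMUSG00000030707) on chromosome 7 from 126699773 to 126707787, both on the minus strand. On the plus strand are Cfl1 (ENSMUSG00000056201) on chromosome 19 from 5490455 to 5495201, Lcp1 (ENSMUSG00000021998) on chromosome 14 from 75131101 to 75230842, Arpc2 (ENSMUSG00000006304) on chromosome 1 from 74236084 to 74268209 and Vim (ENSMUSG00000026728) on chromosome 2 from 13573927 to 13582826. All are protein-coding. Actg1 overlaps 2 small RNA genes on its own strand, and Cfl1, Coro1a and Lcp1 overlap genes on the opposite strand (Snx32, Bola2, Gm15628 and Gm15629).

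The main contrast was in Actb, the ubiquitous β-actin gene. In microglia it stood at 32889.7 CPM (UMIs of the gene per 1000000 UMIs of the class, interval 32735 to 33045, 173061 UMIs) in the stressed library and at 51567 CPM (51236.5 to 51899.7, 93065 UMIs) in the control library. The log2 ratio of stressed over control was −0.65 (−0.66 to −0.64), or 1.57 times lower. For its sister Actg1, the γ-actin gene, stressed microglia had 1434 CPM (1402 to 1467) and control microglia 1418.5 CPM (1364 to 1474.5), and the log2 ratio was 0.02 (−0.05 to 0.08). Per Actg1 UMI there were thus 22.9 Actb UMIs in stressed and 36.4 in control microglia.

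Actb was lower in every class of stressed cells, myeloid or not. Border-associated macrophages, which line the brain's vessels and membranes, stood at 24530.3 CPM in the stressed and 54808.5 CPM in the control library (−1.16, −1.21 to −1.11). Monocytes or granulocytes had 36323 and 60785.5 CPM (−0.74, −0.84 to −0.64). Neurons had 16524 and 28241 CPM (−0.77, −0.83 to −0.72; −0.40 by Leiden clusters of expression in place of marker gates), neural progenitors 13751 and 24369 CPM (−0.83, −0.90 to −0.75), and the few vascular cells 20370.2 and 28615 CPM (−0.49, −0.62 to −0.36). Actg1 differed little in the same cells, with log2 ratios of −0.08 in border-associated macrophages, 0.01 in neural progenitors, 0.01 in neurons and 0.10 in monocytes or granulocytes. Its ratio in vascular cells was 0.39 (−0.27 to 1.09), from 86 stressed and 25 control UMIs. The Actb to Actg1 UMI ratio was accordingly lower in all 6 classes of the stressed library, for example 8.05 against 13.9 in neurons and 16.2 against 34.2 in border-associated macrophages.

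**Figure D1:**
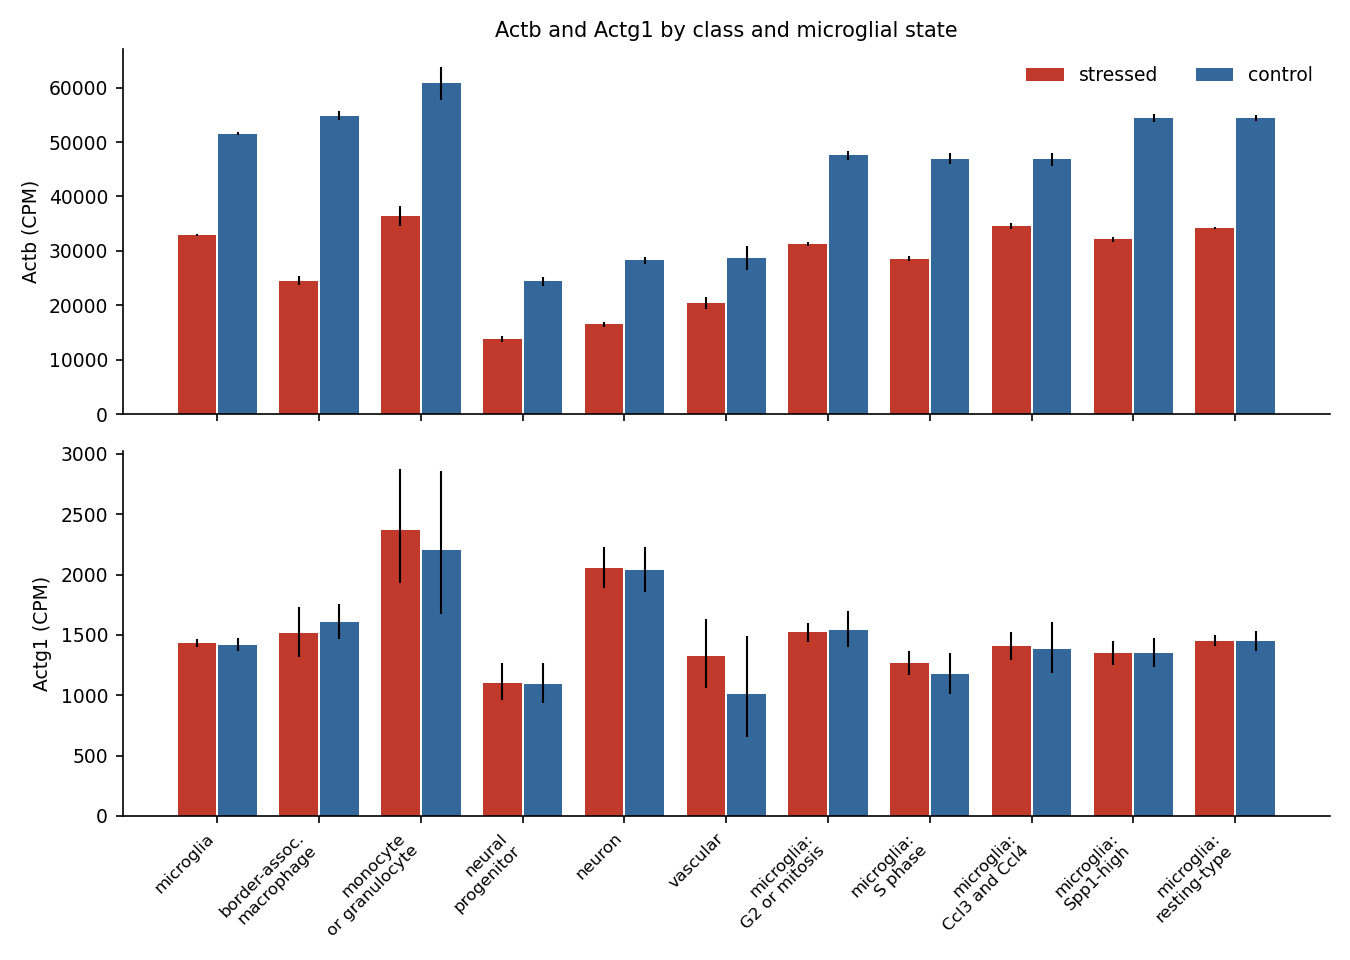
Actb (top) and Actg1 (bottom) in CPM by marker-gated class and microglial state, with stressed cells in red and control cells in blue; bars are UMI sums over the class total, and lines are 95% Poisson intervals of counting error. Each red Actb bar is lower than its blue neighbour (32889.7 against 51567 CPM in microglia), while the Actg1 bars of a pair stand at about the same height in the 4 classes and 5 states with most cells (1434 against 1418.5 CPM in microglia).

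The lower Actb also held across microglial states. States were gated on marker UMIs after each cell had been thinned to 1100 UMIs, and none of the 10 genes was in a gate. Between 12 and 58 cells of a library sat at the cut of a gate and between 15 and 97 cells 1 UMI below it, so the states are ranges. Resting-type microglia had 34142 CPM in 726 stressed cells and 54426 CPM in 350 control cells (−0.67), and Spp1-high microglia had 32101 CPM in 82 and 54392 CPM in 95 cells (−0.76). Cells in S phase (97 and 52 cells) and in G2 or mitosis (157 and 86 cells) stood at −0.72 and −0.61. The smallest difference was that of the chemokine state with Ccl3 and Ccl4, 34544 CPM in 81 stressed and 46814 CPM in 46 control cells (−0.44, −0.48 to −0.39), which is under 1.5 times. The cell barcodes of that state held a mean of 7.64 G and C bases in stressed and 8.37 in control cells. Within the 5 classes of cells by that number its ratio was −1.23 to −0.55, from 6 to 26 cells of a library each. Within each library the states lay close together, between 28522 and 34544 CPM in the stressed and between 46814 and 54426 CPM in the control library, and these ranges did not overlap.

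Depth and sex transcripts differed between the libraries, so Actb was also read within them. In 5 bins of UMIs per microglial cell, from 1000 to 10000 UMIs, its log2 ratio lay between −0.76 and −0.61. Taking microglia that held Xist, the RNA of the inactive X chromosome, but no Y-linked RNA, it stood at 33122 CPM in 1074 stressed cells and 51701 CPM in 233 control cells. The 133 control cells with Y-linked transcripts and no Xist had 50468.9 CPM, close to the other control cells, and 0 stressed cells were of this kind. The remaining 73 stressed and 323 control cells had 27094 and 52065 CPM.

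Scaling decides on which side of 1.5 times Actb falls in microglia, but not its direction. TMM factors (edgeR) and DESeq2 size factors raised each microglial ratio by 0.115 and 0.116, which put Actb at −0.53 with both, and a total without mitochondrial and ribosomal protein genes put it at −0.56. In the other 16 of 19 alternatives it stayed past 1.5 times, at ratios down to −0.68. Over all 2668 genes that reached 50 CPM in either library the median was −0.06 (5th to 95th percentile −0.52 to 0.36), and 2.10% of them lay at or below Actb.

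The level of Actb in a single cell went with a technical feature, the base composition of its cell barcode. The barcode is the 16-base tag of the bead primer that names the droplet, and it is no part of any transcript. In microglia whose barcode held 6 or fewer G or C bases, Actb stood at 50597.5 CPM in the stressed and 74042 CPM in the control library. With 7 such bases it stood at 46812 and 69908.5 CPM, with 8 at 34144 and 59788 CPM, and with 9 at 16974 and 32792 CPM. With 10 or more it stood at 9345 and 13146 CPM. Cells with the fewest G and C bases thus had 5.41 times the Actb CPM of those with the most in the stressed library and 5.63 times in the control library. Both exceed the 1.57 times between the libraries.

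Within each of these barcode classes Actb was lower in stressed microglia. The log2 ratios were −0.55, −0.58, −0.81, −0.95 and −0.49 in the order above, and their mean was −0.68. Mean G and C numbers were alike, 7.91 in stressed and 8.01 in control microglia. Across cells, Pearson's r of the Actb share with the G and C number was −0.74 in the stressed library (n = 1147) and −0.67 in the control library (n = 689). These cells share their library and bead chemistry, so r is a description. A and T bases had positive r (0.40 and 0.24 in stressed, 0.37 and 0.24 in control microglia), and C and G negative r (−0.42 and −0.24 in stressed, −0.33 and −0.27 in control microglia). At 15 of the 16 barcode positions in each library, mean Actb was lower in cells with G or C there. UMIs per cell, genes per cell and the mitochondrial share had r between −0.05 and 0.07 with the G and C number.

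**Figure D2:**
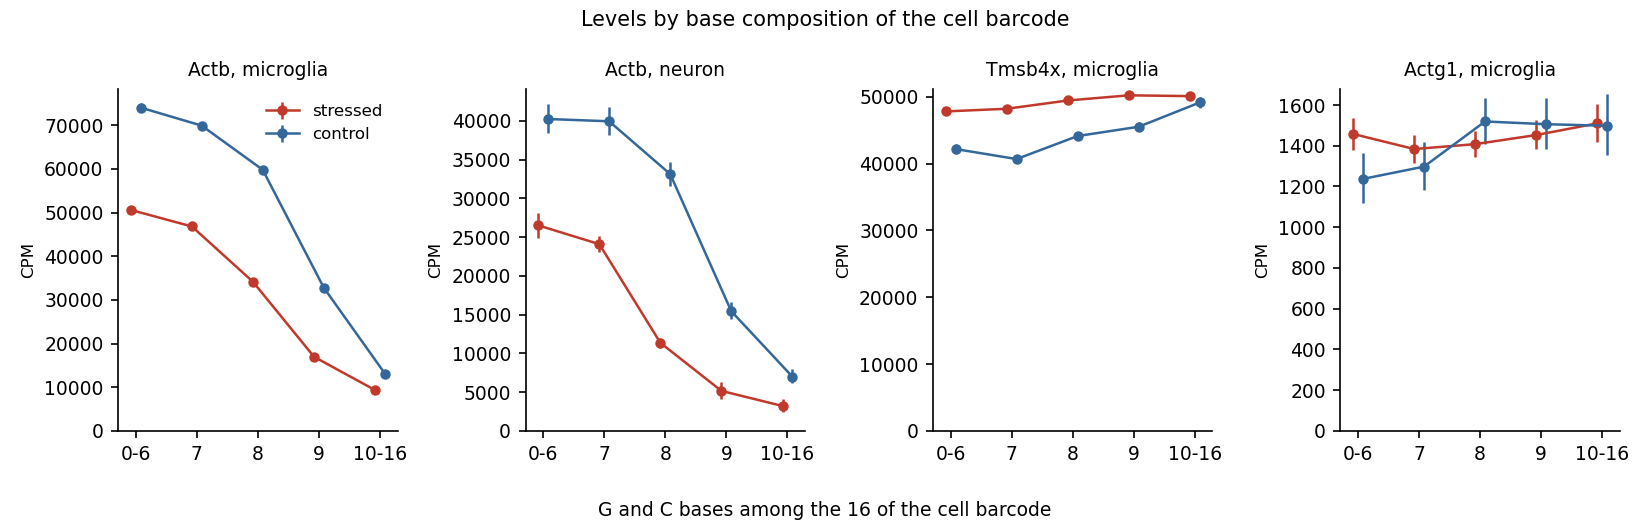
CPM of Actb, Tmsb4x and Actg1 in microglia and of Actb in neurons against the number of G and C bases among the 16 of the cell barcode, stressed in red and control in blue; lines on the points are 95% Poisson intervals of counting error. Actb declines with the G and C number in both libraries (50597.5 to 9345 CPM in stressed and 74042 to 13146 CPM in control microglia), while Tmsb4x (47790.5 to 50081.5 CPM in stressed and 42166 to 49129 CPM in control microglia) and Actg1 vary far less.

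The same pattern held outside microglia. Cells with the fewest G and C bases had 8.25 and 5.74 times the Actb CPM of cells with the most in stressed and control neurons, 10.1 and 7.59 times in neural progenitors, and 6.59 and 5.84 times in border-associated macrophages. The 5 microglial states gave between 4.81 and 7.13 times. Ratios of stressed over control within barcode classes rest on few cells here. They were below 0 in all 5 barcode classes of neurons (−1.58 to −0.60), border-associated macrophages (−1.47 to −1.06) and progenitors, where the class with the fewest G and C bases stood at −0.02, from 9 stressed and 11 control cells. Mean G and C numbers were 7.98 in stressed and 7.56 in control progenitors, 7.76 and 8.01 in border-associated macrophages, and 7.72 and 7.93 in neurons.

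By r, few other genes shared this. Among 2327 genes with at least 50 CPM in both libraries, the 5th to 95th percentile of r in microglia was −0.05 to 0.07 in the stressed and −0.05 to 0.08 in the control library. Actb, Tacc1 and Upf1 had r below −0.2 in both libraries, and 0 genes had r above 0.2 in both. The lowest r apart from Actb was −0.34 for Slc39a1 in the stressed and −0.30 for Tacc1 in the control library. Among the cytoskeletal genes, Tmsb4x had r of 0.07 and 0.17, the highest mean of all 2327 genes, and r of the other 8 was at most 0.09 in size. The 9 genes next to Actb in mean r, named after their values were seen, were Tacc1, Slc39a1, Upf1, Notch2, Cbx3, Birc6, Prrc2c, Hnrnpul1 and Khsrp. Cells with the fewest G and C bases had 1.70 to 14.2 times the CPM of those with the most. The genes were picked by r in these same cells, which favours large folds, so the folds do not rank them against Actb. For Upf1 it was 4.62 times in the stressed and 14.2 times in the control library, against 5.41 and 5.63 times for Actb. The 14.2 times came from 211 CPM with the fewest and 14.9 CPM with the most G and C bases, so it rests on few UMIs. These 9 genes stood at 77.3 to 595 CPM, and counting error lowers r where UMIs are few. Their log2 ratios of stressed over control had a median of −0.37 (−0.66 to −0.10), against −0.04 for all 2327 genes. Upf1 was past 1.5 times, beside 3.07% of the 2668 genes with 50 CPM in either library that were lower by that much. The interval of Notch2 took in 0 (−0.10, −0.36 to 0.16), and TMM scaling adds 0.115 to each microglial ratio. Whether the tie to the barcode has a part in the difference between the libraries was not tested beyond these values.

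The spread of Actb over single microglia followed the barcode too. In cells thinned to 1100 UMIs, stressed microglia had a median of 35 Actb UMIs (5th to 95th percentile 5 to 73) and control microglia one of 60 (10 to 108). The variance was 13.6 times the mean in stressed and 18.3 times in control microglia, and within barcode classes it was 3.70 to 8.92 and 3.55 to 12.7 times. For Tmsb4x it was 4.40 and 4.62 times. By barcode class, from fewest to most G and C bases, the medians were 53.5, 51, 35, 14 and 8 UMIs in stressed cells and 81, 77, 67, 32.5 and 13 UMIs in control cells. Of stressed microglia, 84.8% lay below the control median, and 33.4% of control microglia lay above the 95th percentile of stressed ones.

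**Figure D3:**
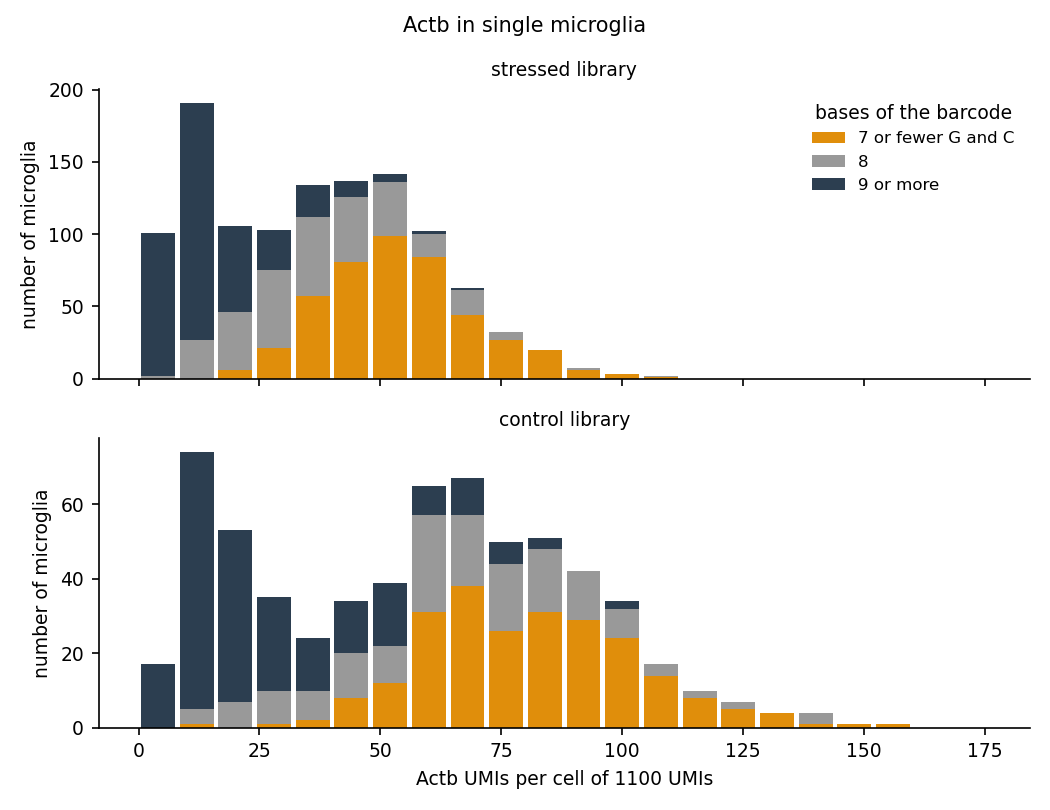
Number of microglia by Actb UMIs per cell after thinning to 1100 UMIs, in bins of 8 UMIs, for the stressed (top) and control (bottom) library; colours give the G and C number of the barcode (7 or fewer, 8, 9 or more). Both histograms have a low hump, mostly of cells with 9 or more G and C bases, and a broad high hump, mostly of cells with 7 or fewer, and the high hump lies further right in the control library (median 81 against 53.5 UMIs with 6 or fewer G and C bases).

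At the level of the list, few of the 10 genes differed by 1.5 times. In microglia 0 of 10 were higher and 1 was lower (Actb), where 1.42% of all genes at this level of 50 CPM or more were higher and 3.07% lower, and the members' median log2 ratio was −0.07. TMM scaling shifts microglial ratios by more than this median. In border-associated macrophages 2 of 10 were past 1.5 times, both lower (Actb and Lcp1), beside 33.9% of all genes past it in either direction and 18.4% lower there, with a median of −0.11. Of 8 members measured in neural progenitors, 1 was higher (Tmsb4x) and 1 lower (Actb), beside 15.2% and 28.1%, with a median of −0.06. With DESeq2 size factors Pfn1 (0.68) and Cfl1 (0.72) were also higher there, and Actb (−0.58) was just under 1.5 times. Of 8 measured in neurons, 0 were higher and 1 was lower (Actb), beside 12.1% and 16.1%, with a median of −0.04. Actb was among 6 of 1547 genes with at least 50 CPM in all 4 classes that were lower by 1.5 times in each, and 18 were higher in each. Its place among the 6 depends on the processing. Under 1.5 times were −0.40 in neurons by Leiden clusters, −0.53 in microglia with TMM or DESeq2 factors and −0.58 in progenitors with DESeq2 factors.

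**Figure D4:**
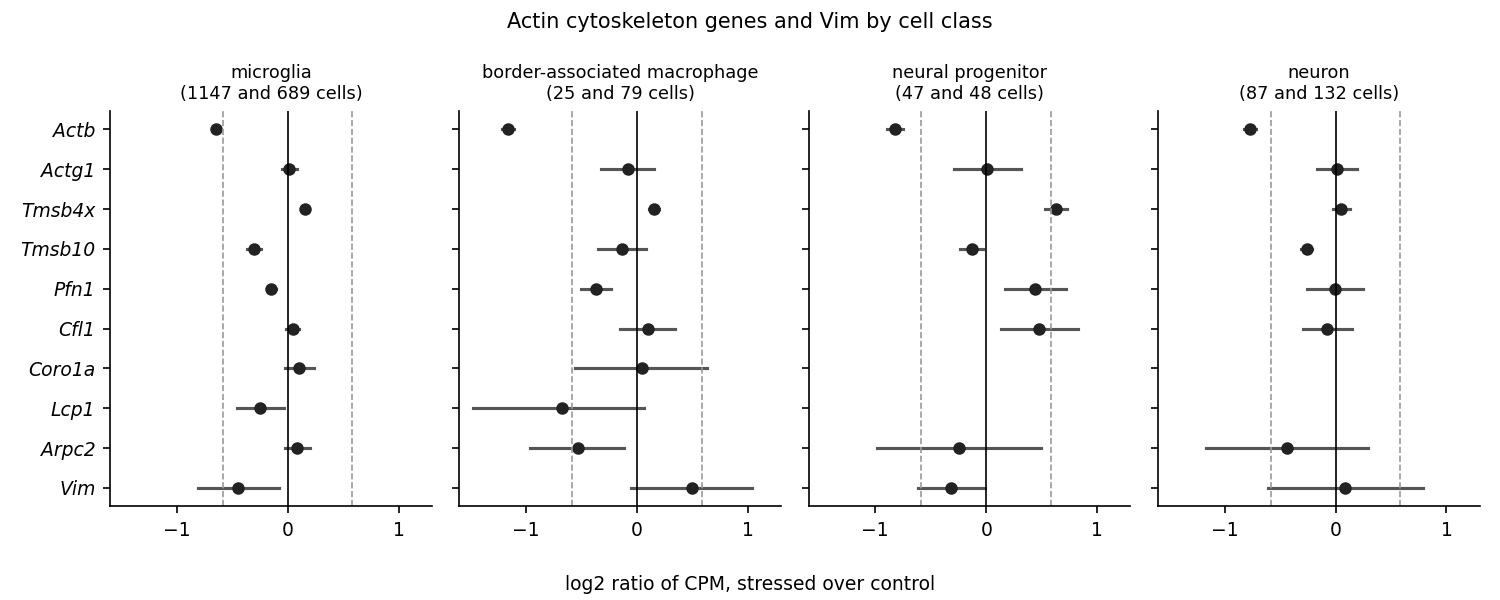
Log2 ratio of CPM, stressed over control, of the 10 genes in microglia, border-associated macrophages, neural progenitors and neurons, with 95% intervals of counting error and dashed lines at 1.5 times; genes under 50 CPM in both libraries are left out. Actb lies left of the lower line in each panel (−0.65 in microglia to −1.16 in border-associated macrophages), and most others lie between the lines. With other scaling Actb was under 1.5 times in microglia (−0.53, TMM or DESeq2) and in neural progenitors (−0.58, DESeq2).

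The monomer-binding genes moved less than Actb, and not all one way. Tmsb4x, which encodes thymosin β4, stood at 49123 CPM (48934 to 49313) in stressed and 44110.2 CPM (43804 to 44418) in control microglia, a log2 ratio of 0.16 (0.14 to 0.17). It was also higher in border-associated macrophages (44098 and 39685 CPM, 0.15) and in neural progenitors (11890 and 7696 CPM, 0.63, 0.53 to 0.73). In neurons it differed little (11673 and 11261 CPM, 0.05, −0.02 to 0.13), but by Leiden clusters in place of marker gates the ratio was 0.85. The progenitor ratio rests on few cells. Of the 47 stressed progenitors 1 held 19.3% of their Tmsb4x UMIs and 1 held 28.6% of their Actb UMIs. The Tmsb4x ratio was 0.46 without the shared barcodes and 0.26 in cells thinned to 1 depth, where both libraries had a median of 10 UMIs per cell. The Actb ratio there was −1.17 without the cell with most Actb UMIs of each library. Tmsb4x is X-linked. It stood at 48679.6 and 44989.6 CPM in microglia with Xist but no Y-linked RNA, at 42503 CPM in the 133 control cells with Y-linked RNA, and at 60202 and 44268 CPM in the 73 stressed and 323 control cells that remain.

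Tmsb10, the thymosin β10 gene, went the other way in microglia, with 1404 CPM (1373 to 1437) in the stressed and 1734 CPM (1674 to 1796) in the control library (−0.30, −0.36 to −0.24). Within states the difference was uneven: −0.51 in the chemokine state, −0.46 in Spp1-high and −0.30 in G2 or mitosis cells, but −0.06 (−0.16 to 0.03) in resting-type and 0.05 (−0.18 to 0.28) in S phase cells. The chemokine value rests on few cells, since 1 of its 46 control cells held 29.3% of the Tmsb10 UMIs there. In thinned cells that state had means of 1.62 stressed and 1.35 control UMIs per cell, so its direction turned. The thinned means were 1.58 and 1.60 in G2 or mitosis cells, and 1.51 and 2.26 in Spp1-high cells. In neurons it was lower as well, at 25227 and 30219 CPM (−0.26, −0.31 to −0.21). In progenitors it had 8463 and 9249.65 CPM (−0.13, −0.23 to −0.02), a ratio that turned to 0.11 with DESeq2 size factors.

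The thymosins divided the cell classes between them in both libraries. Relative to microglia of the same library, Tmsb10 was 4.17 log2 units higher in stressed and 4.12 in control neurons, and 2.59 and 2.42 higher in progenitors. It was also 2.78 and 2.25 higher in monocytes or granulocytes and 3.59 and 3.84 in vascular cells. Tmsb4x was 2.07 and 1.97 log2 units lower in neurons than in microglia, and 2.05 and 2.52 lower in progenitors. Per Tmsb4x UMI there were 2.16 Tmsb10 UMIs in stressed and 2.68 in control neurons, against 0.0286 and 0.0393 in microglia. Border-associated macrophages resembled microglia, with 0.0401 and 0.0488. Within microglia the ratio was 0.0364 and 0.0577 in Spp1-high cells and 0.0273 and 0.0311 in resting-type cells.

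Pfn1, the profilin gene, was slightly lower in stressed microglia, at 3417 CPM (3367 to 3468) against 3783 CPM (3694 to 3874) in the control library (−0.15, −0.19 to −0.11). With DESeq2 size factors the ratio was −0.03. In border-associated macrophages it stood at 4354 and 5610.29 CPM (−0.37, −0.50 to −0.23), and in progenitors at 1539 and 1133 CPM (0.44, 0.17 to 0.72), so the direction differed between classes. Cfl1, the cofilin gene, stood at 1746 and 1689 CPM in microglia (0.05, −0.01 to 0.11) and was higher in stressed progenitors (1011 and 726 CPM, 0.48, 0.14 to 0.83). By Leiden clusters in place of marker gates its progenitor ratio was 0.06. Neurons held 1034 and 1039 CPM of Pfn1 and 1311 and 1379 CPM of Cfl1. Against microglia of the same library, neurons were thus low in Pfn1 (−1.72 in stressed, −1.86 in control) and closer in Cfl1 (−0.41 and −0.29).

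Coro1a, Lcp1 and Arpc2 build and remodel filament networks in leukocytes, and none of them differed by 1.5 times between the microglia of the libraries. Coro1a stood at 379 CPM (363 to 396) in the stressed and 352 CPM (326 to 381) in the control library (0.11, −0.02 to 0.24). For Lcp1 the levels were 121 CPM (111 to 130.4) in the stressed and 143 CPM (126 to 162) in the control library (−0.24, −0.46 to −0.03). For Arpc2 they were 509 CPM (490.2 to 529) and 479 CPM (448 to 512), with a ratio of 0.09 (−0.02 to 0.20). In border-associated macrophages Lcp1 had 20 UMIs in the stressed and 68 in the control library (142 and 226 CPM, −0.68, −1.47 to 0.06), and the sign turned to 0.23 in thinned cells. Arpc2 there had 63 and 194 UMIs (−0.53, −0.97 to −0.12).

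Coro1a and Lcp1 separated myeloid from neural cells sharply. In cells thinned to 1100 UMIs, 34.5% of stressed microglia (31.7 to 37.3%) and 30.7% of control microglia (27.1 to 34.5%) had a Coro1a UMI, at median depths before thinning of 3986 and 2169 UMIs. Of neurons, 4.94% (4 of 81) and 0.935% (1 of 107) did, at medians of 2817 and 1505 UMIs. Of progenitors, 0 of 45 and 0 of 43 did. The share that 3 cells with a UMI would give, taken as the limit for a count of 0, is 6.67% and 6.98% there. Lcp1 was found in 12.2% of stressed and 15.4% of control microglia, in 0 of 81 stressed neurons (limit 3.70%) and in 0 of 107 control neurons (limit 2.80%). Arpc2 was less selective, with 115 CPM in stressed and 155 CPM in control neurons, 2.15 and 1.63 log2 units below microglia. Without thinning, Coro1a was found in 75.2% of stressed and 54.0% of control microglia and Lcp1 in 38.1% and 30.0%. Monocytes or granulocytes were richest in Coro1a, with 1605 CPM from 9 stressed cells and 1316 CPM from 14 control cells, 2.08 and 1.90 log2 units above microglia.

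**Figure D5:**
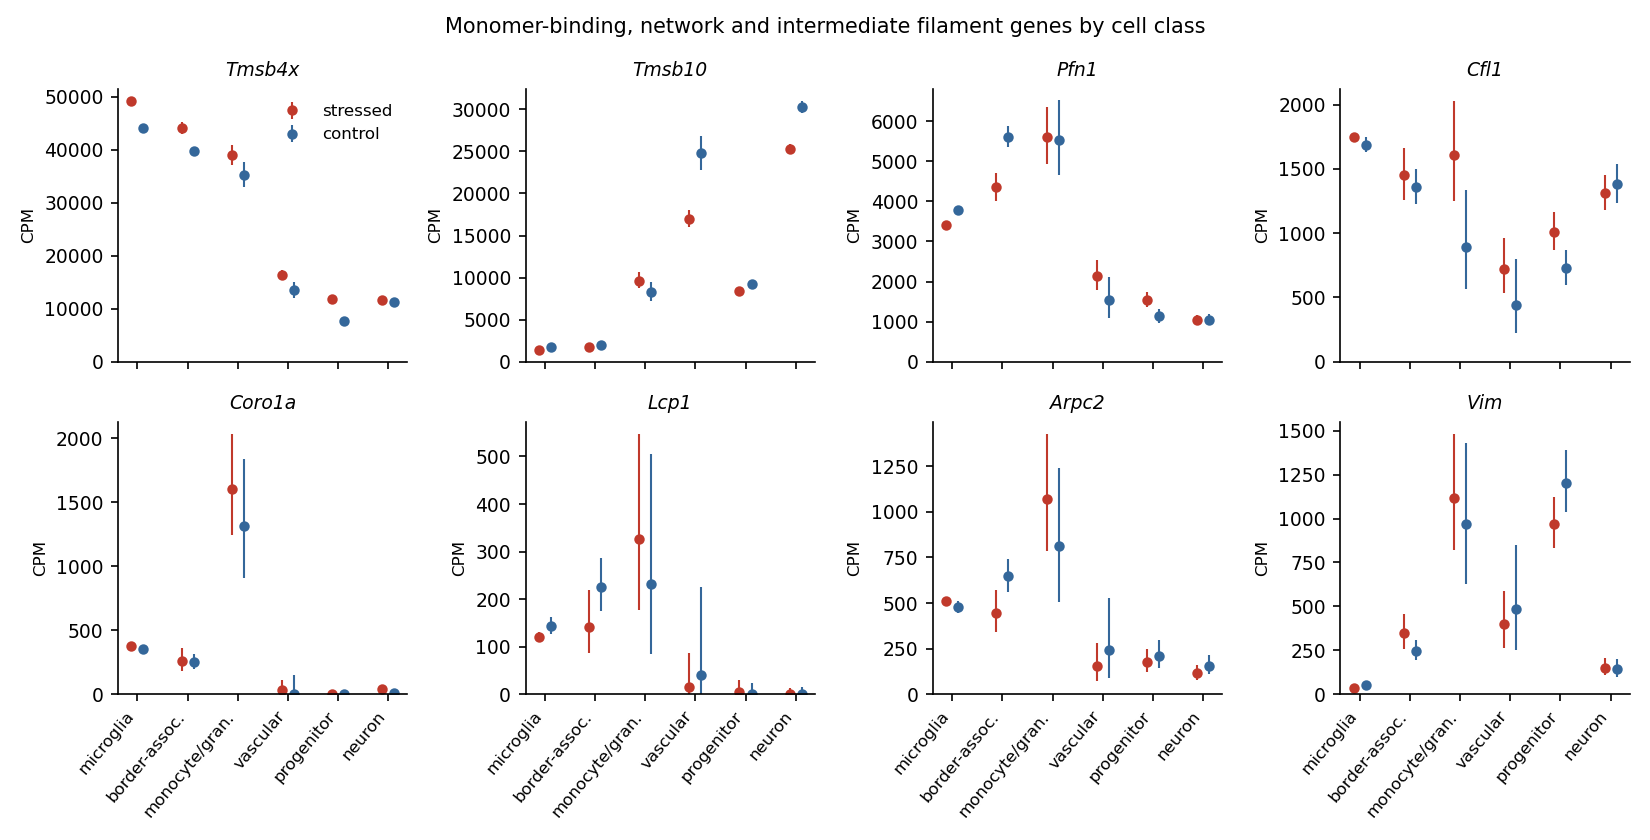
CPM of the 8 genes other than the actins in 6 marker-gated classes, with stressed cells in red left of control cells in blue; lines are 95% Poisson intervals of counting error. Tmsb4x is high in myeloid classes (49123 and 44110.2 CPM in microglia) and Tmsb10 in neurons (25227 and 30219 CPM), Coro1a and Lcp1 are at or close to 0 in progenitors and low in neurons (39.5 and 12.9 CPM of Coro1a), and Vim is low in microglia (37.8 and 51.5 CPM) and high in progenitors (968 and 1203 CPM).

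Vim was scarce in microglia, at 37.8 CPM (32.7 to 43.5, 199 UMIs) in the stressed and 51.5 CPM (41.6 to 63.1, 93 UMIs) in the control library. The log2 ratio of −0.45 (−0.81 to −0.08) was not stable. It was 0.01 in cells thinned to 1 depth, where 42 of 1143 stressed cells (3.67%, 2.66 to 4.93%) and 22 of 629 control cells (2.20 to 5.25%) had a Vim UMI. Without thinning these shares were 11.4% and 7.69%. The ratio was 0.18 in microglia with less dissociation response, and −1.03 in cells of 2000 to 4000 UMIs. By Leiden clusters in place of marker gates it was −1.01, and in cells that held Xist but no Y-linked RNA −0.87. The 1% of microglia with most Vim UMIs, 12 stressed and 7 control cells, held 30.7% and 39.8% of them, and without them the ratio was −0.24.

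By state, Vim stood at 24.7 CPM in stressed and 79.2 CPM in control cells of the chemokine state (10 UMIs in each, −1.68, −3.10 to −0.26), where 1 of 46 control cells held 50.0% of them. In thinned cells of that state, 3 of 81 stressed and 2 of 46 control cells had a Vim UMI. It stood at 36.4 and 30.6 CPM in resting-type cells (103 and 25 UMIs, 0.25, −0.39 to 0.95). Spp1-high cells had 51.7 and 79.9 CPM, cells in G2 or mitosis 52.0 and 78.8 CPM, and S phase cells 6 stressed and 2 control UMIs. Summed markers of the other cell types were lower in stressed microglia, except those of vascular cells. Border-associated macrophage markers stood at 361 CPM in the stressed and 423 CPM in the control library (7 of 8 in each, Cd163 at 0 in both). Erythroid markers stood at 2.85 and 6.65 CPM, from 15 and 12 UMIs (3 of 4 in each, Hbb-bh1 at 0 in both). Summed markers in microglia were 39.7 CPM in the stressed and 70.4 CPM in the control library for neural progenitors (7 and 6 of 8 detected, Pax6 at 0 in both). They were 24.5 and 38.2 CPM for neurons (6 and 7 of 9, Dlx1 and Six3 at 0 in both) and 9.69 and 31.6 CPM for monocytes or granulocytes (5 and 6 of 10, Ly6c2, Ngp, Retnlg and Chil3 at 0 in both). Vascular markers stood at 22.0 and 20.5 CPM (8 and 7 of 8, Kcnj8 at 0 in the control library). In microglia with no UMI of a neural marker the Vim ratio was −0.35. The part of monocyte or border-associated macrophage transcripts was not tested.

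Between classes Vim varied far more. Progenitors, whose radial glial fibres contain vimentin, had 968 CPM (832 to 1121) in the stressed and 1203 CPM (1038 to 1387) in the control library, a ratio of −0.31 (−0.62 to −0.01) that was 0.19 in thinned cells. They stood 4.68 and 4.55 log2 units above microglia of the same library. At equal depth, 64.4% of stressed progenitors (29 of 45) and 62.8% of control progenitors (27 of 43) had a Vim UMI. Monocytes or granulocytes stood 4.88 and 4.23 log2 units above microglia (48 and 25 UMIs), vascular cells 3.40 and 3.24 (26 and 12 UMIs), and border-associated macrophages 3.20 and 2.26 (49 and 74 UMIs). Neurons were nearer to microglia, at 151 and 142 CPM, 2.00 and 1.46 log2 units above them. Summed over all kept cells Vim was 121 CPM in the stressed and 208 CPM in the control library (−0.78). Class shares differed too: 3.34% and 4.49% progenitors, 1.78% and 7.40% border-associated macrophages, and 0.640% and 1.31% monocytes or granulocytes. Neurons made up 6.18% and 12.4%, and vascular cells 0.569% and 0.468%.

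Genes around the 10 in the same machinery showed no such single contrast. Of 133 genes in the actin and intermediate filament lists, 102 reached 10 CPM in microglia of either library. Of these, 0 were higher and 4 lower by 1.5 times, with a median log2 ratio of −0.12, beside 3.18% of all 7544 genes measured in this way higher, 7.48% lower and a median of −0.08. Without the 10 members, 0 of 92 were higher and 3 lower, at the same median of −0.12, which is about the shift that TMM scaling adds.

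The Arp2/3 list (9 measured) and the monomer-binding list (9) had 0 genes past 1.5 times and medians of −0.005 and 0.002. Arpc3, a small Arp2/3 subunit, had 466 CPM in stressed and 421 CPM in control microglia (0.15), and Arpc5l 138 and 160 CPM (−0.21). Nucleation-promoting factors (15, median −0.19) likewise had 0 past 1.5 times. Abi3 (0.35) and Abi1 (−0.43), partners in the WAVE complex, lay on opposite sides.

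Besides the actin list (2 measured, Actb lower), 3 lists held 1 gene each that was lower by 1.5 times. In the coronin, capping and severing list (12 measured, median −0.12) it was Coro7, a coronin relative, with 77 stressed and 41 control UMIs (−0.63, −1.20 to −0.05), while Capza1 and Capza2, capping protein subunits, stood at −0.44 and 0.17. In the bundling and cross-linking list (20, −0.22) it was Ezr, the ezrin gene, with 47 and 30 UMIs (−0.90, −1.59 to −0.18), and Zyx stood at −0.44, Evl at −0.41 and Msn at −0.34. In the myosin and tropomyosin list (12, −0.20) it was Myo9b (36.1 and 63.2 CPM, −0.81, −1.15 to −0.46), with Myh9, the non-muscle myosin heavy chain, at −0.57 and Myo1f at −0.53. Intermediate filament and lamin genes (5, −0.13) had 0 past 1.5 times. Tubulins, the other filament system, had 1 of 9 higher, Tubb6 (90 and 18 UMIs, 0.78, 0.04 to 1.60), and 0 lower (−0.14), with Tubb5 at 1579 and 1839 CPM (−0.22). Coro7, Ezr and Tubb6 are named after their values were seen.

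Targets of SRF and of MRTF, its partner that senses the actin monomer pool, had 0 of 6 past 1.5 times. Their median was −0.28, with Flna at −0.29. Genes of the dissociation response had 1 of 12 higher and 0 lower (median 0.13). The higher one was Junb, named after its values were seen (36.5 and 21.1 CPM, 0.79), and Hspa8, a heat shock protein gene, stood at 698 and 614 CPM (0.18). Haemoglobins, which microglia are not known to make in quantity, had 4 of 4 lower and a median of −1.04. Hba-a1 stood at 622 and 1669 CPM (−1.42) and Hbb-bs at 959 and 1486 CPM (−0.63). Summed over the erythroid list, stressed microglia had 1793 CPM and control microglia 3516 CPM. The sums were far lower in border-associated macrophages (56.6 and 66.6 CPM), progenitors (161 and 102 CPM) and neurons (115 and 81.9 CPM). In progenitors and neurons the stressed library was the higher one. Free RNA can reach droplets, and its part in these values and in those of the 10 genes was not tested.

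The abundant members also weigh on the CPM of every other gene, since CPM is a share of a total. Together the 10 took 9.11% of the UMIs of stressed and 10.5% of those of control microglia, of which Actb took 3.29% and 5.16% and Tmsb4x 4.91% and 4.41%. Leaving all 10 out of the total shifted each other microglial log2 ratio by −0.023 and changed the 1.5 times call of 15 of 2658 genes. Apoe (0.60 to 0.58 on leaving them out), Rpl10, mt-Nd3 and Cmtm7 lost the call of higher, and Syngr1 and Myh9 (−0.57 to −0.59) gained that of lower. Leaving out Actb alone shifted the ratios by −0.028 and changed 19 calls, and Tmsb4x alone by 0.008 and 5 calls, in the opposite direction.

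By comparison, leaving out the 13 mitochondrially encoded genes (3.60% and 2.32% of UMIs) shifted microglial ratios by 0.019 and changed 11 calls, and leaving out 81 ribosomal protein genes (21.7% and 18.4%) shifted them by 0.060 and changed 37. The 10 members shifted ratios by −0.044 in border-associated macrophages (76 of 2671 calls changed), by −0.025 in neurons (34 of 3386) and by −0.010 in progenitors (29 of 3792). In these classes with few cells more genes lie near 1.5 times.

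The tie of Actb to the barcode carries into single-cell totals. Actb took 5.06% of UMIs in stressed microglia with the fewest G and C bases and 0.934% in those with the most, and 7.40% and 1.31% in control microglia. All other genes therefore have CPM that is 4.35% higher in stressed and 6.58% higher in control cells at the G and C rich end, other things equal, or 0.061 and 0.092 on the log2 scale. For Tmsb4x the fewest over most log2 ratio was −0.07 in the stressed and −0.22 in the control library, and with Actb left out of the total −0.01 and −0.13. For Pfn1 it was −0.18 and −0.21, and −0.12 in both without Actb.

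Correlations between the 10 genes across cells were low. In thinned microglia, Pearson's r of Actb with each of the other 9 lay between −0.04 and 0.08 in stressed (n = 1143) and between −0.05 and 0.06 in control cells (n = 629), and r of Actb with Actg1 was 0.04 and 0.00. Over all 45 pairs r lay between −0.04 and 0.19 in stressed and between −0.05 and 0.15 in control cells, and the highest in each was that of Tmsb4x with Pfn1. Such values in sparse counts are weak, and cells share their library. Actb had r of −0.05 with the mitochondrial share in each library, 0.01 and −0.03 with depth and −0.02 with the dissociation response in each.

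Over 15 groups of at least 30 cells (classes and states by library), the genes whose log2(CPM + 10) was most like Actb among 5747 were Lamtor4 (r = 0.90), Man1a, Capza1, Szrd1 and Gm13166 (0.88). Those most like Vim were Tomm7 (0.94), Atp5e, Spry2, Selenom and Dbi (0.90). The 15 groups come from 2 libraries and 10 of them are microglia, so these values order genes by their contrast between classes and libraries and nothing more.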

How the data were processed

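The deposited matrices hold raw UMI counts per gene and cell barcode. Per the submitters' processing notes, Cell Ranger 3.0.0, STAR, Seurat 2.4 and the build GRCm38.p5 (mm10) were used; which made the matrices is not given in the sources used here. Genes, lists and gates were chosen with earlier results of these data known. Kept cells joined the class of which they showed at least 3 markers and the largest share of the markers, and cells of 2 kinds (28 stressed, 4 control) stayed unassigned. Microglial states were gated in cells thinned to 1100 UMIs. The Spp1-high state took at least 6 UMIs summed over Spp1, Gpnmb, Lpl, Csf1 and Igf1. The other gated states took at least 3 UMIs summed over their own markers. Doublets were kept; Scrublet's own threshold marked 3 stressed and 2 control cells, and an alternative removed the highest 3.5% of scores (53 and 43 cells). Counts were summed per class and library and divided by the class total. Sums have exact Poisson, ratios exact conditional and shares Clopper-Pearson intervals; a share of 0 has as its limit the share of 3 counts. Named genes were the 10 members, up to 4 genes of at least 50 CPM with the largest ratios per list, 5 genes most like Actb and Vim each, and up to 6 genes of most CPM whose call changed; exceptions are marked in the text. Python 3.11.15, scanpy 1.11.5, edgeR 4.0.16, DESeq2 1.42.0 and matplotlib 3.10.9 were used, and the ratio step was tested on simulated data. Positions and sequences come from GENCODE M21. 1 of the gene lists is not reported on its own here.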

Additional observations from a re-analysis of the deposited data

How the results depend on the processing

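No paired analysis was possible because each condition was 1 library, and for the same reason no replicate could be left out. The Actb log2 ratio in microglia (−0.65 as reported) was −0.53 with TMM and with DESeq2 factors, −0.56 with a total without mitochondrial and ribosomal protein genes, and −0.67 with one without the 10 members. It was −0.68 in thinned cells, −0.63 with a stricter cell filter, −0.68 with Leiden clusters, −0.66 outside the cycling gates and −0.62 with less dissociation response. Under alternatives chosen after seeing the data it was −0.66 in microglia with no neural marker UMI, −0.68 as a mean over barcode classes and in cells of 2000 to 4000 UMIs, and −0.67 with a total without Actb and Tmsb4x. Members past 1.5 times in microglia numbered 1 as reported, 0 with TMM, DESeq2 or the total without mitochondrial and ribosomal genes, and 2 with the stricter filter, Leiden clusters, cells of 2000 to 4000 UMIs or cells with Xist. In progenitors 2 became 1 with a mean of per-cell CPM, Leiden clusters or no shared barcodes. With DESeq2 size factors Tmsb4x (0.87), Cfl1 (0.72) and Pfn1 (0.68) were higher by 1.5 times in progenitors, and Actb (−0.58) was just under it. In neurons 1 became 3 when thinned and 2 with the stricter filter or Leiden clusters. Lcp1 in border-associated macrophages turned to 0.23 when thinned (−0.68 as reported). Neurons by Leiden clusters had Actb at −0.40, Tmsb4x at 0.85 and Vim at −1.16, against −0.77, 0.05 and 0.08. The microglial genes past 1.5 times numbered 120 at 50 CPM, 382 at 20 CPM, 54 at 100 CPM and 5135 with no minimum. In the wider lists, 0 higher became 1 with TMM, and 4 lower became 2 at 50 CPM or with TMM. Without the members 0 higher became 1 with TMM, and 3 lower became 1 at 50 CPM. The cause of these changes was not tested. Of all values recomputed, 580 stayed within their counting interval (counts of genes, within 1.5 times), 205 moved further, and 1 that was past 1.5 times changed its sign. Few UMIs limit Vim, which rested on 199 in stressed and 93 in control microglia.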
